A study of Mus musculus with 10 samples.

Results

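Pyruvate dehydrogenase, the tricarboxylic acid (TCA) cycle and the breakdown of branched-chain amino acids form the core of fuel oxidation in muscle mitochondria. A set of 35 genes of these pathways was followed in the gastrocnemius, a calf muscle, of mice without desmin and of wild-type mice. The genes were taken by name from the 54232 rows of the deposited table. All 35 were found by symbol, and all 35 reached the expression limit that 14289 genes passed. The data are RNA-seq values of 5 mice homozygous for the desmin null allele (Des -/-) and 5 wild-type mice (Des wt/wt). Both groups carry one strain label, which is composed of B6J, 129Sv, the allele Destm1Cba and Cscl. The mice were 3 months old, wild-type animals were littermates according to the methods of the study, and food and water were freely available. In the knock-out mice the null allele is carried in all cells and not in muscle alone, so every cell type of their samples has it. The labels name the gastrocnemius, whereas the study's legend names gastrocnemius and plantaris together. Its methods speak of pooled RNA, but the table has 1 column per mouse, and each column was used as 1 replicate. The labels do not give the sex, but Y-linked transcripts were present in all 10 mice (mean of 4 transcripts 9.52 to 10.6).

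Pyruvate made by glycolysis enters mitochondria through the pyruvate carrier and is turned into acetyl-CoA by the pyruvate dehydrogenase complex. Kinases of the Pdk family switch this complex off by phosphorylation of its E1 alpha subunit, and Pdp phosphatases switch it on again. Acetyl-CoA is then oxidized by the TCA cycle. Muscle is also a main site where leucine, isoleucine and valine are transaminated and then oxidized by a sister complex, the branched-chain ketoacid dehydrogenase, which has a kinase of its own.

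Values are regularized log (rlog) values. They lie on a log2 scale, are scaled for library size and are drawn towards the mean of each gene, so that they understate fold changes, most of all for low genes. Counts were not used here and the depth of each library is unknown. Adjusted p values come from limma, fitted to all 14289 tested genes, and a gene was called at an adjusted p under 0.05. Des itself ranged from 11.76 to 11.89 in desmin knock-out and from 16.10 to 17.74 in wild-type mice, so each library had the Des level of its label. Wild-type mouse 3 stood apart from the rest. The correlation of its values with those of its genotype averaged 0.982, where the remaining wild-type mice had 0.989 to 0.991, and its linear values summed to 1.48 times the median mouse. All 10 genes of a skeletal muscle marker list were tested and none was at 0, and their summed level ranged from 22.22 to 22.40 in desmin knock-out and from 22.41 to 23.38 in wild-type muscle (log2 of summed linear values). In bulk tissue, fewer cells of a type and less RNA per cell cannot be told apart.

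Of the 35 genes, 3 were called, all higher in desmin knock-out muscle, and all were pyruvate dehydrogenase kinases: Pdk4, Pdk3 and Pdk1. This is 8.57% of the genes, compared with 13.7% of all tested genes called in either direction. In the upward direction 7.7% of all tested genes were called, and in the downward direction 5.99%. No gene of the set was called lower by limma, while 5 of the 35 had an unadjusted p under 0.05 in either direction (27.6% of all tested genes). In 5 genes the values of the genotypes did not overlap, against 14.4% of all tested genes. Of these, 3 were higher in knock-out mice (7.45% of all tested genes) and 2 were lower (6.97%). The median log2 difference of the set was -0.07, compared with -0.00293 for all tested genes. The 30 genes other than the kinases and the phosphatase had log2 differences between -0.31 and 0.17.

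**Figure D1:**
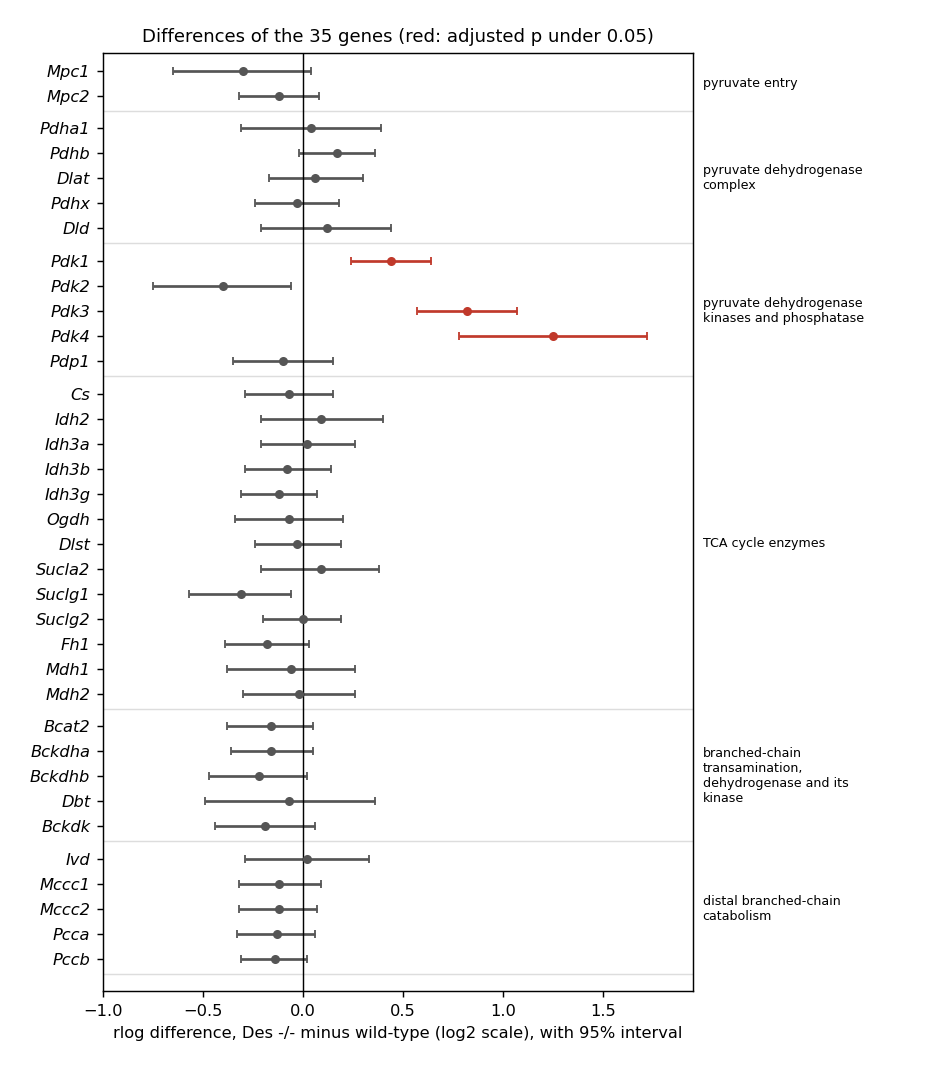
Difference in rlog value between Des -/- and wild-type muscle (horizontal axis, log2 scale) for each of the 35 genes, ordered by role; points are limma estimates, bars are 95% intervals, and red marks an adjusted p under 0.05. The intervals of Pdk1, Pdk3 and Pdk4 lie above 0, those of Pdk2 and Suclg1 lie below 0 without a call, and the others include 0.

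The 4 kinase genes lie on separate chromosomes of GRCm38. The 250 bases before the RefSeq start of each (RefSeq promoter table, GRCm38.p6, written 5′ to 3′ on the strand of the gene) are shown because Pdk4, Pdk3 and Pdk1 are the called genes of the set, and Pdk2, which was not called, is the other isoform of the family. Promoter entries were found for 32 of the 35 genes (not for Dbt, Idh3a and Pdp1), and for Pdk1 and Pdk2, which have several, the one closest to the GENCODE start was taken. Capitals mark matches to the motifs searched.
Pdk4 (chr6:5496279-5496528, reverse strand): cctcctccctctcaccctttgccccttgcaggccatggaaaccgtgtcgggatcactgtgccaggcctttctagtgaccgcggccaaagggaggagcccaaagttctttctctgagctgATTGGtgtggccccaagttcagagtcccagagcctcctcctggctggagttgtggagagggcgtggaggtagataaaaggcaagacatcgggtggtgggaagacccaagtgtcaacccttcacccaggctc
Pdk3 (chrX:93832151-93832400, reverse strand): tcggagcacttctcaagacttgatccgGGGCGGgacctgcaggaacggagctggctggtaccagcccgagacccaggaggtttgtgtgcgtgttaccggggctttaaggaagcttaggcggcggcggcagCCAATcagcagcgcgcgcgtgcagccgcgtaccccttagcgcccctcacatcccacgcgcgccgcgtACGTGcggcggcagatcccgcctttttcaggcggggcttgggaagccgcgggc
Pdk1 (chr2:71872974-71873223, forward strand): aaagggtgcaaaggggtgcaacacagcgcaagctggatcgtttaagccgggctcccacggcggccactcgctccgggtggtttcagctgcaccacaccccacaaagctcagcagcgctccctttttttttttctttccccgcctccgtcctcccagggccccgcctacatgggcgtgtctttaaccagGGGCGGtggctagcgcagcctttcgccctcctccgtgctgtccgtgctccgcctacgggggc
Pdk2 (chr11:95041372-95041621, reverse strand): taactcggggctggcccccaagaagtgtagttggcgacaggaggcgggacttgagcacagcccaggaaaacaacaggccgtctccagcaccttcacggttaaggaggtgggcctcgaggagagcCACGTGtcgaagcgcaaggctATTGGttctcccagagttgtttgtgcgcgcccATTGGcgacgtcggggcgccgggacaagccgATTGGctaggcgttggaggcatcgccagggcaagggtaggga
Both strands were searched for 9 motifs. CCAAT, the CCAAT box, occurs in the windows of Pdk4, Pdk3 and Pdk2 and in 33.8% of all 32851 promoter windows of this length. GGGCGG, the GC box, occurs in those of Pdk3 and Pdk1 and in 32.7% of all windows. ACGTG, the core of hypoxia response elements, occurs in those of Pdk3 and Pdk2 and in 16.6% of all windows. In Pdk2 it matches on both strands at overlapping positions, as CACGTG. The motifs of estrogen-related receptors (TNAAGGTCA, 1.14% of all windows), FOXO factors (GTAAACA, 3.17%), PPAR with RXR (0.0335%), the glucocorticoid receptor (0.00913%), NRF1 (0.782%) and CREB (TGACGTCA, 1.55%) have no match in these 4 windows. A match is only a description of the letters.

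Pdk4 (ENSMUSG00000019577, chromosome 6, 5483351 to 5496309, reverse strand) encodes the kinase isoform known to rise in muscle when fat replaces glucose as fuel, as in fasting. Its rlog values were 16.03, 15.51, 16.31, 15.85 and 16.01 in knock-out mice 1 to 5 and 15.24, 15.15, 14.23, 14.20 and 14.62 in wild-type mice 1 to 5. The lowest knock-out mouse lay above the highest wild-type mouse, and wild-type mice 1 and 2 were closest to the knock-out group. Knock-out mice averaged 15.94 ± 0.29 (SD, n = 5) and wild-type mice 14.69 ± 0.49 (SD, n = 5), which gave a difference of 1.25 on the log2 scale with a standard error of 0.22 (limma, adjusted p = 0.00163). An exact permutation test of the 10 values (two-sided) gave p = 0.00794, the smallest that 5 mice against 5 allow. Without wild-type mouse 3 the difference was 1.14, and without wild-type mice 3 and 4, the lowest in Pdk4, it was 0.94 (adjusted p = 0.00187 from limma).

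Pdk3 (ENSMUSG00000035232, chromosome X, 93764607 to 93832201, reverse strand) encodes an isoform that is scarce in muscle, and it had the lowest mean of the 35 genes (5.55). Knock-out mice 1 to 5 had rlog values of 5.92, 5.92, 5.98, 5.95 and 6.02, and wild-type mice 1 to 5 had 5.19, 4.93, 5.45, 4.99 and 5.11. The groups were far apart relative to their spread, with wild-type mouse 3 closest to the knock-out mice. The log2 difference was 0.82 with a standard error of 0.12 (limma, adjusted p = 3.24e-04), and 0.90 without wild-type mouse 3. A gene this low is drawn strongly to its mean by rlog, which narrows the spread between mice as well as the difference. The standard error and the adjusted p rest on this narrowed spread.

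Pdk1 (ENSMUSG00000006494, chromosome 2, 71873224 to 71903858, forward strand) encodes the isoform known to be induced by hypoxia-inducible factor. In knock-out mice 1 to 5 the rlog values were 11.98, 11.97, 12.20, 11.95 and 12.01, and in wild-type mice 1 to 5 they were 11.61, 11.79, 11.58, 11.37 and 11.57. The lowest knock-out value, 11.95, again exceeded the highest wild-type value, 11.79. The log2 difference was 0.44 with a standard error of 0.09 (limma, adjusted p = 0.00703). Without wild-type mouse 3 the difference was also 0.44 (limma, adjusted p = 0.00364).

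Pdk2 (ENSMUSG00000038967, chromosome 11, 95026258 to 95041354, reverse strand) encodes the broadly expressed isoform of resting muscle. Its rlog values were 13.47, 13.49, 13.36, 13.47 and 13.49 in knock-out mice 1 to 5 and 13.59, 13.69, 14.57, 13.77 and 13.69 in wild-type mice 1 to 5. The highest knock-out mouse was below the lowest wild-type mouse, but the gap between the groups was narrow and wild-type mouse 3 was far above the others. The log2 difference was -0.40 with a standard error of 0.16 (limma, adjusted p = 0.117), so Pdk2 was not called. Without wild-type mouse 3 the difference was -0.23, and with the smaller spread it passed (adjusted p = 0.0295 from limma). None of Pdk1, Pdk3 and Pdk4 is overlapped by another tested gene. The annotated antisense gene Gm11513 that overlaps Pdk2 was listed at 0 in all mice.

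**Figure D2:**
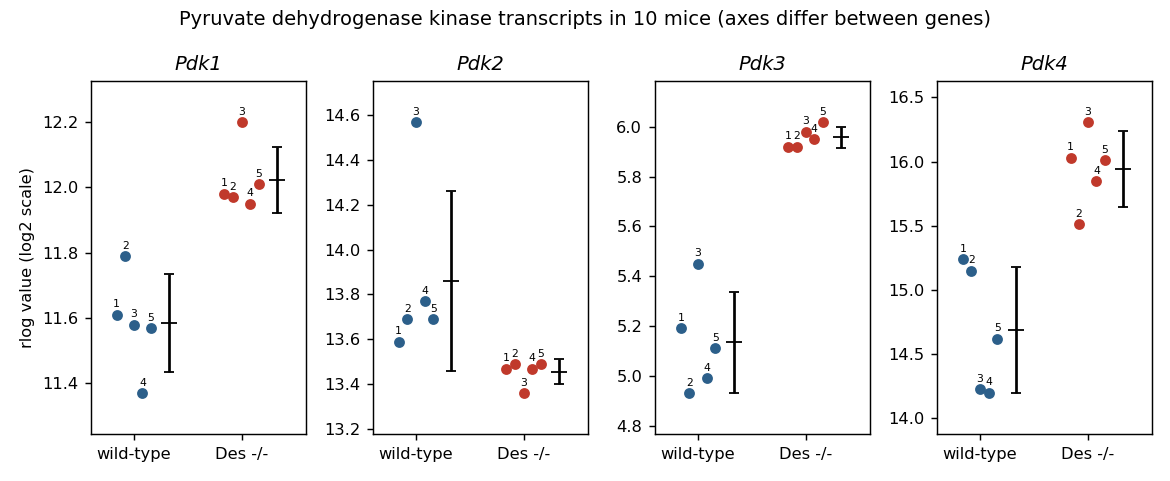
Rlog values (vertical axis, log2 scale, a separate axis for each gene) of the 4 kinase genes in 5 wild-type (blue) and 5 Des -/- mice (red), numbered by mouse; black marks show mean ± SD. Pdk1, Pdk3 and Pdk4 are higher in every knock-out than in every wild-type mouse, and Pdk2 is lower, with wild-type mouse 3 at 14.57.

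Pdp1, the calcium-stimulated phosphatase that reactivates the complex, had a log2 difference of -0.10 (95% interval -0.35 to 0.15) and overlapping values. To set the isoforms side by side, linear values were divided by exonic length and expressed as a share of the summed level of the 4 kinases. This share is a description and was not tested. Pdk4 made up 82.1%, 76.1%, 85.4%, 80.3% and 81.8% in knock-out mice 1 to 5 and 71.9%, 69.0%, 40.3%, 53.0% and 61.1% in wild-type mice 1 to 5. Every knock-out mouse had a larger Pdk4 share than any wild-type mouse, and wild-type mice differed widely among themselves. The mean share of Pdk2 was 16.3% ± 3.09 (SD, n = 5) among knock-out animals, while that of wild-type animals was 37.8% ± 12.7 (SD, n = 5). Pdk1 contributed 2.23% to 3.35% and Pdk3 0.0792% to 0.135% over all 10 mice, so these called isoforms made up a small share of the kinase transcripts. On the length of the longest transcript, the mean Pdk4 share was 75.4% in knock-out and 51.1% in wild-type muscle. The rlog scale compresses these shares to an unknown degree.

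**Figure D3:**
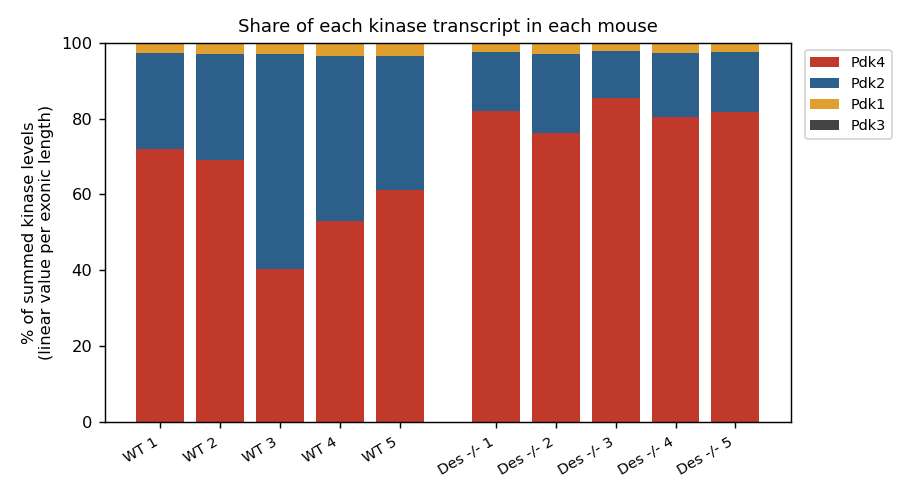
Share of each kinase transcript (vertical axis, percent of the summed linear values per exonic length) in each of the 10 mice. Pdk4 takes 76.1% to 85.4% in Des -/- mice and 40.3% to 71.9% in wild-type mice, and most of the remainder is Pdk2.

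No gene of the complex that these kinases act on was called. The pyruvate dehydrogenase complex has 5 genes in the set: Pdha1 and Pdhb for the subunits of its decarboxylase, Dlat for the acetyltransferase core, Pdhx for a structural partner of this core, and Dld for the dehydrogenase that the branched-chain and oxoglutarate complexes share. By limma 0 of the 5 had an unadjusted p under 0.05. The X-linked Pdha1, whose product carries the phosphorylation sites, had rlog values of 15.07, 14.96, 14.98, 14.99 and 15.11 in knock-out mice 1 to 5 and 15.24, 15.43, 14.41, 14.95 and 14.86 in wild-type mice 1 to 5. The wild-type values lay on both sides of the tight knock-out group, with mouse 3 lowest. The log2 difference was 0.04 (95% interval -0.31 to 0.39), and -0.10 without wild-type mouse 3. Pdhb, whose mean was higher by 0.17 (95% interval -0.02 to 0.36), was called only after quantile normalization among all alternatives run (adjusted p = 0.0456 from limma).

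The pyruvate carrier genes Mpc1 and Mpc2 had lower means without a call. For Mpc1 the log2 difference was -0.30 (95% interval -0.65 to 0.04), and -0.16 without wild-type mouse 3, which had the highest value of all mice (13.39). For Mpc2 it was -0.12 (95% interval -0.32 to 0.08).

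For the 13 TCA cycle genes of the set, log2 differences ranged from -0.31 to 0.09, with a median of -0.06, or -0.02 without wild-type mouse 3. Means were lower in knock-out muscle for 10 and higher for 3. By limma 0 were called and 1, Suclg1, had an unadjusted p under 0.05. Cs, which encodes citrate synthase and is widely used as a marker of mitochondrial content, had rlog values of 15.05, 15.00, 14.91, 14.86 and 14.97 in knock-out mice 1 to 5 and 14.95, 15.24, 15.12, 14.92 and 14.93 in wild-type mice 1 to 5. The groups overlapped, with a log2 difference of -0.07 (95% interval -0.29 to 0.15). Idh2, the NADP-dependent isocitrate dehydrogenase of mitochondria, had 13.35, 13.06, 13.36, 13.04 and 13.03 in knock-out mice 1 to 5 and 12.82, 13.28, 13.14, 12.70 and 13.43 in wild-type mice 1 to 5. These values overlapped as well, with a log2 difference of 0.09 (95% interval -0.21 to 0.40). The genes of the NAD-dependent enzyme, Idh3a, Idh3b and Idh3g, had differences of 0.02, -0.08 and -0.12. Ogdh and Dlst of the oxoglutarate dehydrogenase complex had -0.07 and -0.03.

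Succinyl-CoA ligase pairs the alpha subunit of Suclg1 with the beta subunit of Sucla2, which makes ATP, or of Suclg2, which makes GTP. Suclg1 (ENSMUSG00000052738, chromosome 6, 73248382 to 73276911, forward strand) had rlog values of 13.52, 13.32, 13.33, 13.53 and 13.53 in knock-out mice 1 to 5 and 13.68, 13.76, 14.16, 13.62 and 13.58 in wild-type mice 1 to 5. The groups did not overlap, by a margin smaller than the spread within either. The log2 difference was -0.31 with a standard error of 0.12 (limma, adjusted p = 0.0956), and -0.22 without wild-type mouse 3. Suclg1 was called lower in 2 of 20 alternatives. These were sample weights (adjusted p = 0.0257 from limma) and the fit without wild-type mice 3 and 4 (adjusted p = 0.0452 from limma). Sucla2 had 0.09 (95% interval -0.21 to 0.38) and Suclg2 had 0.00 (95% interval -0.20 to 0.19). Fh1, which encodes fumarase, had -0.18 (95% interval -0.39 to 0.03). The malate dehydrogenase genes Mdh1, of the cytosol, and Mdh2, of the mitochondrion, had -0.06 and -0.02.

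For the 30 genes outside the kinases and the phosphatase, the size of an undetected change can be bounded on the rlog scale. The 95% interval of the difference lay within 1.5-fold in either direction for 29 of them, all but Mpc1, compared with 68.4% of all tested genes. On this scale, larger differences than that lay outside the intervals of these genes, but rlog values understate fold changes.

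The 10 genes of branched-chain catabolism had a median log2 difference of -0.14. By limma 0 were called and 0 had an unadjusted p under 0.05, but 9 of the 10 means were lower in desmin knock-out muscle, where 50.5% of all tested genes had a lower mean. All but Ivd were lower, and Ivd was higher by 0.02. Without wild-type mouse 3, 10 of 10 were lower, compared with 50.9% of all tested genes. With all 10 mice the lean to lower means was not particular to these genes. It was seen in 10 of 13 TCA cycle genes and 12 of 16 other branched-chain genes. It was also seen in 17 of 20 respiratory chain, 11 of 16 fatty acid oxidation and 9 of 10 glycolytic genes. In the pyruvate dehydrogenase complex 1 of 5 means was lower. Without wild-type mouse 3 the median of the 10 branched-chain genes was -0.16. The medians of the other lists were then closer to 0, except for glycolysis (-0.33). They were -0.02 for the TCA cycle genes, -0.06 for other branched-chain genes, -0.06 for the respiratory chain and -0.03 for fatty acid oxidation. The mitochondrial transaminase gene Bcat2, which opens the pathway, had rlog values of 10.91, 11.08, 11.09, 10.91 and 10.83 in knock-out mice 1 to 5 and 10.99, 11.14, 10.92, 11.26 and 11.32 in wild-type mice 1 to 5. The groups overlapped, with a log2 difference of -0.16 (95% interval -0.38 to 0.05). Bckdk, the kinase that switches the branched-chain complex off, had 12.60, 12.80, 12.77, 12.61 and 12.63 in knock-out mice 1 to 5 and 12.68, 12.83, 13.28, 12.89 and 12.66 in wild-type mice 1 to 5. Its difference of -0.19 (95% interval -0.44 to 0.06) was -0.09 without wild-type mouse 3, and it was not of the sign seen for Pdk4, Pdk3 and Pdk1.

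The subunit genes of the branched-chain complex, Bckdha, Bckdhb and Dbt, had differences of -0.16, -0.22 and -0.07. Of the 35 genes Dbt had the largest wild-type SD (0.51), with values from 9.03 in mouse 3 to 10.24 in mouse 2, and without mouse 3 its difference was -0.25. Further down the pathway, Ivd encodes the dehydrogenase of the leucine branch, Mccc1 and Mccc2 its carboxylase, and Pcca and Pccb the propionyl-CoA carboxylase of the valine and isoleucine branches. Their differences were 0.02, -0.12, -0.12, -0.13 and -0.14. With sample weights, 5 of the 10 branched-chain genes were called lower, namely Bcat2, Dbt, Mccc1, Mccc2 and Pccb. The weights were 0.1 for wild-type mouse 3 and 0.275 for wild-type mouse 4, but 4.21 and 3.22 for knock-out mice 4 and 5. With wild-type mouse 3 left out instead, none of the 10 genes was called (smallest adjusted p = 0.055 from limma, for Pccb). The same weights raised the calls over all 14289 tested genes, in either direction, from 1956 to 4220.

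The set also differed between the genotypes in spread. Within wild-type mice the SD was larger than within knock-out mice for 35 of 35 genes, which also held for 82.9% of all tested genes. The median SD was 0.19 in wild-type and 0.10 in knock-out mice, and 0.25 and 0.13 over all tested genes. Without wild-type mouse 3 the median wild-type SD was 0.15, and 29 of 35 genes had the larger SD in wild-type mice, compared with 68.4% of all tested genes. Wild-type mouse 3 was the highest wild-type mouse for 12 genes and the lowest for 8, which makes 20 of 35 (66.7% of all tested genes). Among its high values were Pdk2, Mpc1, Suclg1 and Bckdk, and among its low values Pdha1, Dbt, Sucla2 and Ivd. Leaving it out moved the log2 difference of 17 of the 35 genes by more than 1.5 times or turned its sign, and of these Pdk2 alone was then called. Beside the values given above for Mpc1, Pdha1, Pdk2, Dbt and Bckdk, the differences without it were -0.07 for Mpc2, 0.11 for Dlat and 0.03 for Dld. In the TCA cycle they were 0.05 for Idh3a, -0.05 for Idh3b, 0.03 for Ogdh, 0.01 for Dlst, -0.02 for Sucla2, -0.04 for Suclg2, 0.02 for Mdh1 and 0.08 for Mdh2, and in branched-chain catabolism -0.13 for Ivd. The sign turned in 7 of the 17, namely Pdha1, Ogdh, Dlst, Sucla2, Mdh1, Mdh2 and Ivd.

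**Figure D4:**
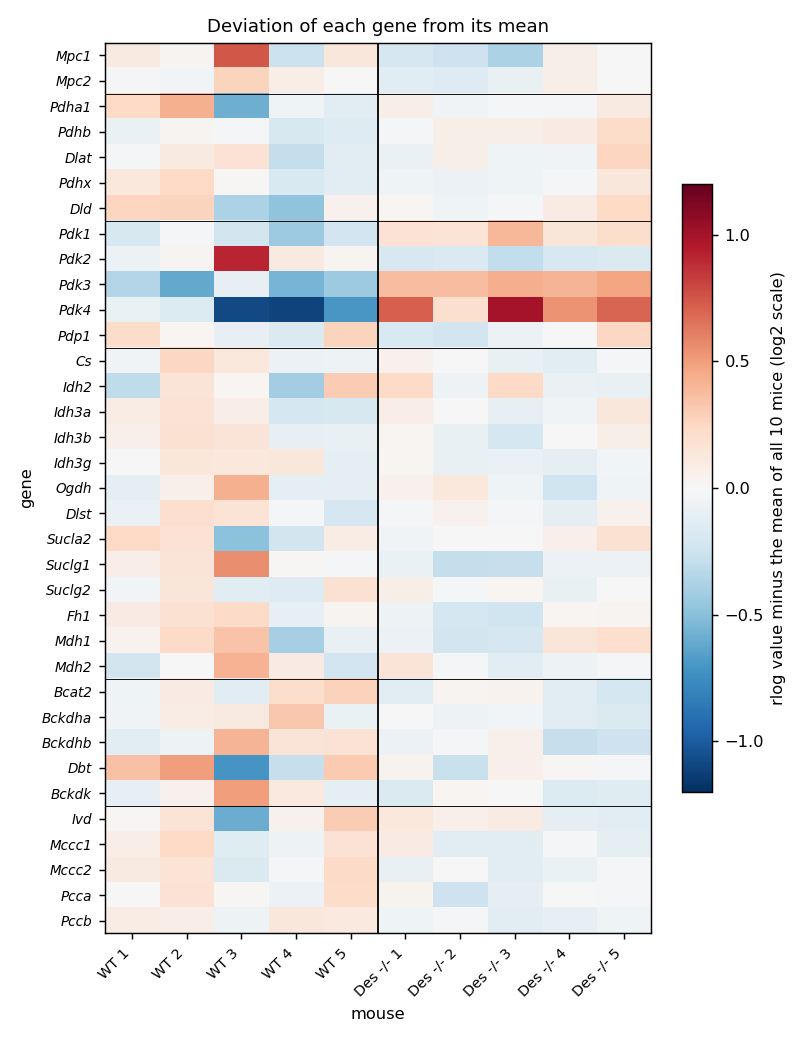
Deviation of each of the 35 genes (rows, ordered by role) from its mean over the 10 mice (columns), in log2 units of the rlog scale, from blue (lower) to red (higher). The strongest colours are in the Pdk4 row, and outside it in wild-type mouse 3, red for Pdk2 and Mpc1 and blue for Dbt.

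Levels of different genes were compared per exonic length (log2 of the linear value per kb). Pdk4 held rank 1 of the 35 genes in knock-out muscle with 14.13 ± 0.29 (SD, n = 5) and rank 4 in wild-type muscle with 12.88 ± 0.49 (SD, n = 5). In knock-out muscle it was followed by Mdh1 with 13.79 ± 0.20 (SD, n = 5), and the difference between these neighbours was not tested. In wild-type muscle Mdh1 (13.84), Mdh2 (13.27) and Pdha1 (13.08) came before it. On the length of the longest transcript the ranks of Pdk4 were 2 and 8.

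To see the surroundings of these enzymes, 47 other genes of the same pathways were listed, of which 46 were tested and Bcat1 was under the limit. A total of 5 were called (10.9%, against 13.7% of all tested genes called in either direction). All 5 were lower in desmin knock-out muscle, where 5.99% of all tested genes were called lower. None was called higher, compared with 7.7% of all tested genes. The median log2 difference over the list was -0.09, or -0.06 without wild-type mouse 3. All 5 were without overlap, and 3 of them, Gpt2, Pcx and Slc16a3, came from the list of pyruvate supply and use. Gpt2, the mitochondrial alanine transaminase that interconverts pyruvate and alanine, had rlog values of 12.53, 12.44, 13.01, 12.45 and 12.49 in knock-out mice 1 to 5 and 13.90, 13.59, 13.88, 14.00 and 13.63 in wild-type mice 1 to 5. The gap between the groups was wide even with knock-out mouse 3, the highest of its group. The log2 difference was -1.22 with a standard error of 0.13 (limma, adjusted p = 2.93e-05). Pcx, which encodes pyruvate carboxylase, the enzyme that refills the cycle with oxaloacetate, ranged from 10.83 to 10.97 in knock-out and from 11.51 to 11.91 in wild-type mice. It had a log2 difference of -0.80 with a standard error of 0.09 (limma, adjusted p = 6.07e-05). Slc16a3, the lactate and pyruvate exporter MCT4 of fast fibers, ranged from 13.06 to 13.36 and from 13.36 to 14.49, and the groups only just separated. Its log2 difference was -0.73 with a standard error of 0.17 (limma, adjusted p = 0.0119).

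Me1, the cytosolic malic enzyme, which makes pyruvate and NADPH from malate, had a log2 difference of -0.47 with a standard error of 0.10 (limma, adjusted p = 0.00667). Slc25a44, a mitochondrial carrier of branched-chain amino acids, had -0.38 with a standard error of 0.11 (limma, adjusted p = 0.0342), or -0.28 without wild-type mouse 3 (limma, adjusted p = 0.0103), and it kept the call in 11 of 20 alternatives. The differences of Gpt2, Pcx, Slc16a3 and Me1 passed in all 20. The 16 tested other genes of branched-chain catabolism had 0 calls and 1 unadjusted p under 0.05 (limma), with a median of -0.09, or -0.06 without wild-type mouse 3. The genes Pdp2 and Pdpr, for a second phosphatase and its regulatory subunit, had differences of -0.22 and -0.54 and were not called (adjusted p = 0.272 and 0.051 from limma).

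**Figure D5:**
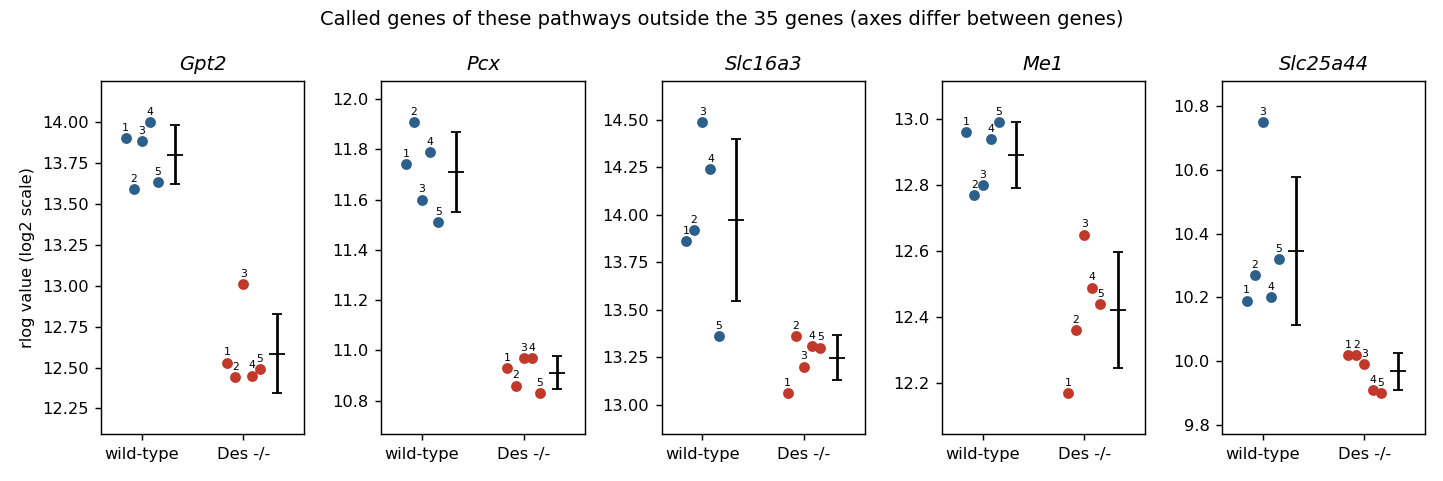
Rlog values (vertical axis, log2 scale, a separate axis for each gene) of the 5 called genes of these pathways outside the set of 35, in 5 wild-type (blue) and 5 Des -/- mice (red), numbered by mouse; black marks show mean ± SD. All 5 are lower in Des -/- muscle, with the widest gap for Gpt2 and nearly touching groups for Slc16a3.

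Neighbouring pathways are given by counts only. Of 20 respiratory chain genes 0 were called and 0 had an unadjusted p under 0.05 (limma), with a median log2 difference of -0.18, and -0.06 without wild-type mouse 3. Of 16 genes of fatty acid oxidation 1 was lower (median -0.09, and -0.03 without wild-type mouse 3), and of 10 glycolytic genes 2 were lower (median -0.46, and -0.33 without it). These counts, and those of the markers, stand beside 5.99% of all tested genes called lower and 7.7% called higher. Markers of fiber type and of other cells also moved with the genotype. In the slow fiber list 2 of 8 genes were higher, the troponin genes Tnnt1 by 1.70 and Tnni1 by 0.91, and 1 was lower, the myosin light chain gene Myl3 (-1.0). The remaining 5, among them the slow myosin heavy chain gene Myh7 (-0.05) and Tpm3 (0.01), were not called. The summed level of the list was 15.06 to 15.59 in knock-out and 14.55 to 15.65 in wild-type mice. In the fast fiber list 3 of 8 were lower, among them Mybpc2 (-1.05) and Actn3 (-0.97), with summed levels of 21.82 to 22.03 and 22.18 to 23.07. This list does not hold the myosin heavy chain genes Myh2 and Myh1, which are in the skeletal muscle list. There 1 of 10 genes was higher, Myh2 (0.77), and 2 were lower, Myh4 (-0.71) and Actn3, both also in the fast fiber list. Myh1 had a higher mean (0.58) without a call. In the fibroblast list 3 of 6 were higher (13.60 to 14.22 and 13.16 to 14.16), in the endothelial list 3 of 5 were lower (11.47 to 11.97 and 11.98 to 12.32), and in the erythroid list 2 of 5 were lower (11.49 to 12.09 and 12.00 to 13.37). Some of these calls were not stable over the 20 alternatives. Col1a1 and Col3a1 of the fibroblast list passed in 9 and 8, endothelial Tek in 8 and Myh4 of the fast fiber list in 9. Lum, Pecam1, Cdh5 and Mybpc2 passed in all 20, Actn3 in 18 and Myh2 in 17. Adipocyte (6), macrophage (6), smooth muscle (4) and Schwann cell (4) markers had 0 calls and 0 unadjusted p under 0.05 (limma). No marker was at 0. The part of fiber type and of these cells in the differences of Pdk4, Pdk3 and Pdk1 was not tested.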

How the data were processed

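RNA of gastrocnemius muscle was extracted with Trizol and a column kit, and libraries were made with a stranded mRNA kit. Per the labels and the submitters' processing notes, reads were trimmed (cutadapt 2.5), aligned to GRCm38 (STAR 2.5.4a) and counted per gene (featureCounts of Subread 1.6.1). The strand setting of the counting is not given in the sources used here. The values the authors deposited are DESeq2 rlog values (log2 scale). All 10 sample columns were used.

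Symbols, positions and exonic lengths came from GENCODE M21 (GRCm38) and were found for 54165 of 54232 genes. Where the mean over mice reached log2(10), genes entered a limma fit (version 3.58.1, R 4.3.3; lmFit, eBayes with trend, two-sided, Benjamini-Hochberg over all 14289 tested genes), and the fit was tested on simulated data. Where a symbol had several rows, the highest was used. Because the strand setting is unknown, reads of overlapping genes cannot be told apart, which concerns Pdha1, Idh3b, Sucla2, Mdh1, Bckdha, Mccc1, Pcca, Pcx, Me1 and Pdpr. Alternatives were other limits, scalings, variance priors and weights, a replicate block, a Y-linked covariate, a correction for GC content and length (14277 genes), a stricter threshold and each mouse left out. Members, gene lists and motifs were chosen with earlier results of these data known. Values in every mouse are given for called genes of the set, those without overlap, and Pdk4, Pdk2, Pdha1, Cs, Idh2, Bcat2 and Bckdk. Other pathway genes are named where called, at most 3 per list, and markers at most 2 per list. Dbt, Pdp2, Pdpr, Myl3, Myh7, Tpm3, Myh4, Myh2, Myh1, Col3a1 and Tek were added after their values were seen, as were the CCAAT and GC box motifs. The labels do not say that the samples of a genotype come from separate litters, so p values measure the spread between these mice. No columns were identical (smallest SD of a difference between 2 mice 0.0919 over genes above 12).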

Additional observations from a re-analysis of the deposited data

Results flagged for a closer look

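In 82 groups of 5 mice (each genotype for the 35 genes, the 5 called pathway genes and Des), a single mouse lay far from its group in 8, and about 4.1 would be found by chance. In 3 groups this was wild-type mouse 3, which was high for Pdk2 (14.57), Slc25a44 (10.75) and Des (17.74). Knock-out mouse 3 was high for Pdk1 (12.20) and Gpt2 (13.01) and low for Pdk2 (13.36). Knock-out mouse 5 was high for Pdhx (12.02), and knock-out mouse 2 was low for Dbt (9.47).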

How the results depend on the processing

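Pdk4 and Pdk1 were called higher in all 20 alternatives and Pdk3 in all 19 in which it was tested; under the limit of log2(50) it was not tested, which left 2 genes called higher. Leaving out each mouse in turn left 3 genes called higher, gave 0 to 1 called lower, a median difference of the set between -0.10 and -0.03, and 1400 to 2496 called genes over all. The 1 gene lower was Pdk2, without wild-type mouse 3 (2496 genes called in all). Genes of the set called lower numbered 7 with sample weights (4220 genes called in all), 1 with the Y-linked covariate (Dbt), and 6 without wild-type mice 3 and 4 (3394 in all), an alternative added after the values had been seen, as was the length of the longest transcript. At an adjusted p under 0.01, 994 genes were called, and Pdk4, Pdk3 and Pdk1 remained.

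Signs changed for genes of the set that were not called with all 10 mice. With sample weights the log2 differences became -0.20 for Pdha1, -0.07 for Dld, -0.01 for Idh2, -0.04 for Idh3a, -0.07 for Sucla2, 0.08 for Mdh2 and -0.18 for Ivd. With the Y-linked covariate they became -0.15 for Pdha1, -0.08 for Dld, -0.01 for Idh3a, 0.03 for Ogdh, -0.09 for Sucla2, 0.11 for Mdh2 and -0.10 for Ivd. Without wild-type mice 3 and 4 they became -0.16 for Pdha1, -0.13 for Dld, -0.01 for Idh2, -0.01 for Idh3a, 0.02 for Ogdh, 0.01 for Dlst, -0.12 for Sucla2, 0.14 for Mdh2 and -0.16 for Ivd. Quantile normalization gave 0.02 for Pdhx, 0.02 for Cs, 0.08 for Idh3b, 0.05 for Ogdh, 0.07 for Dlst, 0.05 for Mdh1 and 0.08 for Mdh2. Median centring gave -0.02 for Idh3a and -0.02 for Ivd. Over the fits that leave out 1 mouse each, the differences that changed sign ranged from -0.10 to 0.16 for Pdha1, -0.08 to 0.03 for Pdhx, -0.03 to 0.07 for Idh3a, -0.11 to 0.03 for Ogdh, -0.08 to 0.02 for Dlst, -0.02 to 0.16 for Sucla2, -0.16 to 0.02 for Mdh1, -0.08 to 0.08 for Mdh2, -0.25 to 0.05 for Dbt and -0.13 to 0.10 for Ivd. Suclg2, at 0.00 with all mice, ranged from -0.04 to 0.04. The cause of these changes was not tested.

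No pairing by replicate number was evident: deviations of mice with the same number correlated between -0.219 and 0.0673 over genes. Such correlations cannot exclude a pairing that touches few genes. With the replicate block 1579 genes were called, 3 genes of the set were higher and 0 lower, the adjusted p of Pdk4 was 0.0033 and that of Slc25a44 was 0.0592, which ended its call. Without counts, the depth and counting error behind a value are unknown, most of all for Pdk3.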

Other observations

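Among genes of the wider pathways that missed the threshold, Pdpr, which encodes the regulatory subunit of the pyruvate dehydrogenase phosphatase, had the smallest adjusted p. Its rlog values were 11.13, 10.87, 10.94, 11.05 and 10.95 in knock-out mice 1 to 5 and 11.79, 11.97, 11.39, 10.84 and 11.67 in wild-type mice 1 to 5. Wild-type mouse 4 lay with the knock-out mice and the other wild-type mice lay above them. The adjusted p was 0.051 (limma), 0.0368 without wild-type mouse 3, and from 1.72e-05 to 0.12 over 20 alternatives, 7 of which called it.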
